A study of Mus musculus with 3 samples.

Results

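Cells described here are the cartilage and fibrocartilage cells of the E14.5 mouse tail, taken as the 241 cells to which the depositors gave cluster code 4, of 2052 tail cells (11.7%, exact 95% interval 10.4 to 13.2) and of 15827 cells in the 3 single-cell libraries of the series. The study compared a tendon differentiation culture of mouse embryonic stem cells at D10, the culture at the earlier D6 PM stage and the tail of E14.5 embryos. Only the tail library enters the comparisons given here. It came from embryos of ScxGFP mice on the C57BL6 strain, which carry a GFP reporter of *Scx*, with both male and female embryos used in the study and no further treatment. Cells were freed with trypsin and collagenase, depleted of dead cells and run on a 10x Genomics 3′ v3 assay, where transcripts are counted by their unique molecular identifiers (UMIs). Whether 1 or several tails were pooled is not given in the sources used here.

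Cartilage of the tail forms the vertebral bodies. It derives from the sclerotome, the ventral part of the somite, whose cells express *Pax1* and *Pax9*. SOX9, with SOX5 and SOX6, turns on the genes of cartilage matrix, a network of type II, IX and XI collagen fibrils filled with aggrecan, a proteoglycan that binds water through its sulfated sugar chains. Between the vertebral bodies lie the intervertebral discs, whose outer ring, the annulus fibrosus, is a fibrocartilage in which cartilage and tendon genes such as *Scx* are both used. Tendon itself is rich in type I collagen and, once differentiated, expresses tenomodulin (*Tnmd*).

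There is 1 tail library, and cells are not replicates of each other, so that no test was made. A level (CPM) is the sum of a gene's UMIs in the cluster divided by the sum of all UMIs there, times 1000000. Parentheses hold exact 95% intervals, from the Poisson law for levels, from the binomial law given both sums for ratios and by Clopper-Pearson for shares, all of which cover counting error only. The clusters had been made from the same genes, so that the levels of code 4 against other cells are a description of what the clustering grouped. A gene was read in a comparison if it reached 10 CPM in either group, and was called if the ratio was at least 2-fold in either direction with an interval that left out 1.

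The 241 cells held 3307424 UMIs, with a median of 13136 UMIs and 4638 genes per cell and a median mitochondrial share of 3%. The other 1811 tail cells had a median of 13609 UMIs, and the 685 tendon cells of code 1 had a median of 13463. Scrublet called 9 of the 2052 tail cells as doublets and none of the 241. The tail shared 4 cell barcodes with the D10 culture and 3 with D6 PM, and 0 of these were among the 241.

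The depositors gave code numbers without names. In the study's table of cluster sizes, 241 tail cells belong to cluster 3, described as without *Scx*, and 49 to the fibrocartilage cluster 2. The markers go against that order, since the 49 cells of code 3 held 1 *Acan* UMI and the 241 of code 4 held 856. The cartilage label used here for code 4 was checked against *Col2a1*, *Acan*, *Sox9* and *Col9a2*. All 4 markers were at their highest level of the 13 tail clusters in code 4. *Col2a1*, the chain of type II collagen, was at 4282 CPM (4212 to 4354) against 171 CPM in the other tail cells, a ratio of 25.1 (24.3 to 25.9). *Acan*, which encodes aggrecan, was at 259 CPM against 5.56 CPM, a ratio of 46.5 (39.2 to 55.5). *Sox9* was 18.0 times and *Col9a2* 12.7 times the level in the other cells.

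The cells were uneven in these markers. Before thinning, *Col2a1* ranged from 0 to 28734 CPM between single cells with a median of 2278, and *Acan* from 0 to 2673 CPM with a median of 0. For shares of cells, UMIs were drawn at random down to 3000 per cell, a depth that 240 of the 241 cells reached. A *Col2a1* UMI was then found in 87.1% of the cells (82.2 to 91.1), a *Sox9* UMI in 77.5%, a *Col9a2* UMI in 68.3% and an *Acan* UMI in 24.2% (18.9 to 30.1). In the red blood cells of code 12, which should lack these genes and had a median depth of 8391.5 UMIs, 4% of 125 cells had a *Col2a1* UMI and 0 had an *Acan* UMI, which by the floor of 3 counts allows a share of up to 2.40% and by the exact interval up to 2.91%.

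Genes of other cell types were low in most lists. Macrophage markers summed to 0.907 CPM in the 241 cells against 225 CPM in the other tail cells, with 4 of 6 at 0 including *C1qa*, *C1qb* and *Tyrobp*. Endothelial markers summed to 9.98 CPM against 323 CPM with 2 of 6 at 0, and muscle markers to 14.51 CPM against 562 CPM with *Pax7* at 0 among 7. Nerve and glia markers summed to 40.2 CPM against 563 CPM, and the 7 genes of that list were all detected. Epidermal markers summed to 99.8 CPM against 758 CPM and against 22.6 CPM in tendon cells, and the 5 haemoglobin and red cell genes to 2883 CPM against 41418 CPM and against 1467 CPM in tendon cells. Pericyte and smooth muscle markers summed to 147 CPM against 312 CPM, mostly *Cspg4* (128 CPM), a proteoglycan that chondrocytes also make, and dermal markers to 538 CPM against 1160 CPM. In the tendon cells of code 1, pericyte and smooth muscle markers summed to 421 CPM and dermal markers to 1751 CPM. Both sums were above those of the other tail cells, and their part in the ratios to tendon cells was not tested. Of the *Hbb-bs* UMIs in the cartilage cells, 89.7% lay in 1 cell. Without mitochondrial, haemoglobin and ribosomal protein genes in the totals, 34 of 668 log2 ratios moved beyond their counting interval. The part of haemoglobin transcripts alone in the ratios of other genes was not tested.

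Over the other tail cells, 435 of 10528 genes read were at least 2-fold higher in the cartilage cells, 4.13% of them, and 1053 (10.0%) were at least 2-fold lower. Over the tendon cells of code 1, 390 of 10200 genes were higher (3.82%) and 679 lower (6.66%). All 7 cartilage collagens and 12 of the 13 cartilage proteoglycans and linker proteins were read, and each of these was higher in both comparisons. *Ucma*, at 3.33 CPM, was the gene not read. Both lists contain the genes that define such a cluster.

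Among the collagens, *Col9a1* was at 1700 CPM, 26.4 times (25.03 to 27.86) the other tail cells, and *Col9a3* at 1381 CPM was 20.3 times higher. *Col11a2*, a chain of the thin fibrils that nucleate type II collagen, was at 338 CPM, 41.4 times (35.9 to 47.9) higher. *Col27a1*, a fibrillar collagen of the growth plate, had the smallest ratio, 4.72. The share of the whole tail's UMIs that lay in the 241 cells was 74.7% for *Col2a1*, 84.6% for *Acan* and 88.8% for *Matn1*, while these cells held 10.6% of all tail UMIs.

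Among the proteins that link the matrix, the matrilins differed in how many cells had them. *Matn4* was at 837 CPM with a UMI in 210 of the 241 cells. *Matn1*, an adaptor of mature cartilage, was at 170 CPM with a UMI in 30 cells, and its highest cell held 5399 CPM. *Hapln1*, the link protein that fixes aggrecan to hyaluronan, was at 635 CPM in 143 cells and 28.3 times (25.9 to 31.0) the other cells. *Snorc*, a small membrane proteoglycan of chondrocytes, had the largest ratio of the genes that passed the naming rule, 92.6 (61.4 to 146), from 273 UMIs in 28 cells. *Cnmd*, chondromodulin, an inhibitor of vessel growth in cartilage, was at 257 CPM and 21.7 times higher.

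**Figure D1:**
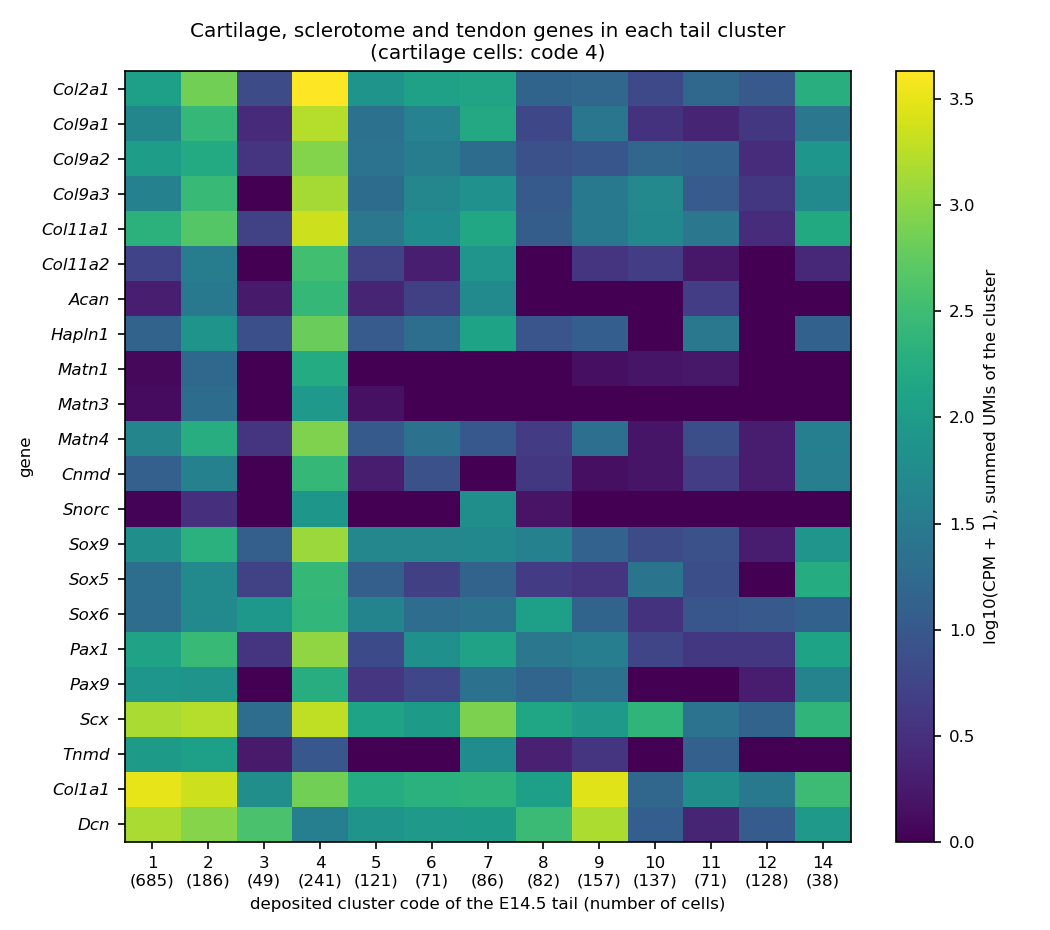
Levels of cartilage, sclerotome and tendon genes (rows) in the 13 clusters of the E14.5 tail (columns, with the number of cells), as log10(CPM + 1) of summed UMIs. The cartilage collagens, proteoglycans and *Sox9* are brightest in code 4, where *Scx* is at 1905 CPM beside 1472 in code 1 and 1664 in code 2, while *Tnmd* is at 8.77 CPM.

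Transcription factors of sclerotome and cartilage followed. Of 16 in the list, 12 were read, 10 were higher than in the other tail cells and none lower. *Sox9* stood at 1214 CPM (1177 to 1252), *Sox5* at 262 CPM and *Sox6* at 249 CPM, which were 18.0, 11.6 and 7.77 times the other cells. *Pax1* was at 1073 CPM, 10.7 times (10.1 to 11.2) higher, and *Pax9* at 181 CPM was 4.05 times higher. Both differed between the groups of a later paragraph. *Pax9* was at 400 CPM in group 3, but at 56.6, 6.94 and 8.56 CPM in groups 2, 6 and 7, below the 80.3 CPM of tendon cells. *Pax1* was at 2493 CPM in group 3 and at 311, 125 and 103 CPM in groups 2, 6 and 7, beside 122 CPM in tendon cells. *Foxc1* and *Foxc2*, forkhead factors of the somite and its sclerotome, were 6.56 and 8.98 times higher. *Nkx3-2*, a target of PAX1 that promotes chondrogenesis, was 16.5 times higher (9.09 to 30.9) from only 35 UMIs. Against tendon cells 10 were again higher, and the somite factors *Meox1* and *Meox2* were lower, with ratios of 0.447 and 0.340.

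Tendon genes separated into those kept and those nearly absent. Not every tendon cell of code 1 had a UMI of these genes. After thinning to the depth used above, 36.4% of 678 code 1 cells had a *Scx* UMI and 8.55% a *Tnmd* UMI. Among 240 cartilage cells the shares were 61.25% and 0.417%. Ratios to the tendon cells are thus to the whole of code 1, not to its cells with *Scx* alone. *Scx*, the transcription factor of tendon progenitors, was at 1905 CPM (1858 to 1952), the highest level of the 13 tail clusters, and 1.29 times (1.26 to 1.33) that of the tendon cells. Both the rank and the direction rest on 44 of the cells, group 3 of a later paragraph, without which, a division made after seeing the data, *Scx* was at 1229 CPM, below the 1472 CPM of code 1 and the 1664 CPM of code 2. Its values in single cells ran from 0 to 15135 CPM with a median of 745, and 60 of the 241 cells had none. The *ScxGFP* transgene was at 65.3 CPM (56.9 to 74.6) against 46.1 CPM in tendon cells. *Mkx*, a tendon homeobox factor, was at 29.6 CPM against 22.3 CPM. Without group 3, *Mkx* was at 17.8 CPM, below the tendon level. By contrast *Tnmd* was at 8.77 CPM against 93.0 CPM in tendon cells, a ratio of 0.0942 (0.0628 to 0.136), and its 29 UMIs lay in 6 cells, 62.1% of them in 1 cell. *Thbs4*, a matrix protein of tendon, had 2 UMIs and *Kera*, the keratan sulfate proteoglycan keratocan, had 0, which puts its level at least 22.2-fold lower than the 20.1 CPM of tendon cells by the floor of 3 counts over the group. Over the 13 genes of the list, 10 were read against tendon cells, 1 was higher (*Fmod*, fibromodulin, 2.45 times) and 6 were lower.

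Most fibrous matrix genes were lower than in tendon cells, but not than in the other tail cells. All 25 genes of the list were read, and against tendon cells 15 were lower and 2 higher, with a median log2 ratio of -1.13 beside 0.01 over all genes read. Against the other tail cells 6 were lower, 3 higher and 16 not called, with a median of -0.27. *Col1a1* was at 722 CPM against 3185 CPM (ratio 0.227) and *Col3a1* at 710 CPM against 3557 CPM (ratio 0.1997). Decorin (*Dcn*), a small proteoglycan of collagen fibrils, was at 36.3 CPM against 1499 CPM, a ratio of 0.0242 (0.0201 to 0.0290), and 35 of the 241 cells had a UMI. The exceptions were *Tnc*, tenascin C, 3.14 times (2.86 to 3.44) the tendon cells, and *Prelp*, a proteoglycan abundant in cartilage, 13.9 times. Versican (*Vcan*) was at 821 CPM, 1.63 times the tendon cells and 2.39 times the other tail cells. By the naming rule, the genes lowest against tendon cells also included *Osr1*, *Tbx3*, *Igf1*, *Acta2* and *Ctsk*. *Osr1*, a factor of connective tissue progenitors, was at 3.02 CPM against 138 CPM.

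Enzymes that build the sugar chains of aggrecan were mostly near the tendon level. Of 25 genes 22 were read, 6 were higher than in tendon cells and none lower. The 6 included both ends of the sulfation route. *Slc26a2*, the sulfate transporter, was 3.24 times (2.64 to 3.98), *Papss2*, which makes the sulfate donor, 7.22 times (5.84 to 8.98) and *Chst11*, which puts sulfate on chondroitin, 5.94 times (4.56 to 7.80) the tendon cells. *Ugdh*, which makes the UDP-glucuronate for the chains, was 2.83 times higher, and *Slc35d1* and *Xylt1* were 2.76 and 2.11 times higher.

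Genes of collagen folding and export showed little difference from tendon cells, which also secrete much collagen. Of 30 genes 29 were read, 5 were higher and 3 lower, with a median log2 ratio of 0.08. Lysyl hydroxylase 2 (*Plod2*) was 2.72 times higher, with *Loxl3*, *Creb3l2*, *Plod1* and *P4ha1* between 2.03 and 2.22 times. *Lox*, lysyl oxidase, which crosslinks collagen I fibrils, was lower, at 27.8 CPM against 239.6 CPM (ratio 0.116, 0.0932 to 0.143). *Serpinh1*, the collagen chaperone HSP47, was at 1342 CPM in cartilage cells and 1337 CPM in tendon cells.

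**Figure D2:**
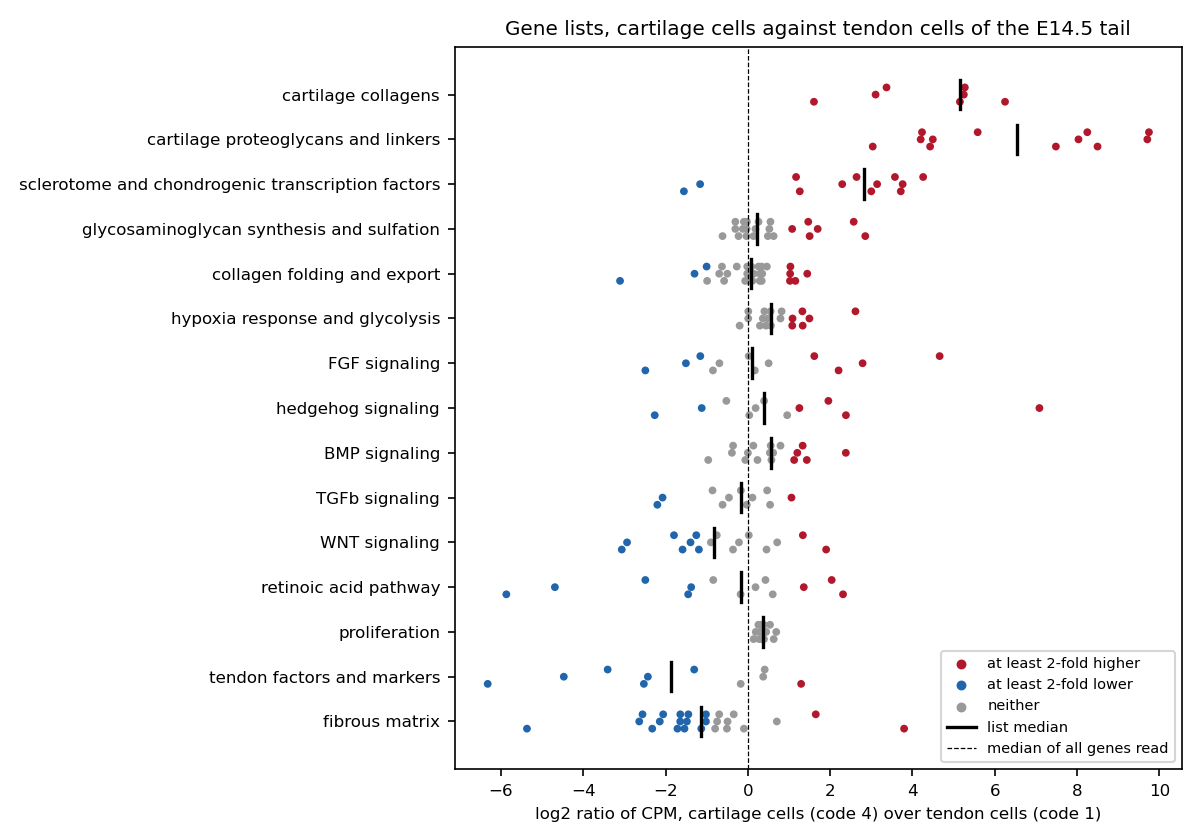
Log2 ratio of CPM, cartilage cells over tendon cells of code 1, for the genes read in 15 lists (points, colored by call), with list medians (black lines) and the median over all genes read (dashed line). The cartilage lists lie to the right with medians of 5.15 and 6.53, and the fibrous matrix list lies to the left at -1.13.

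In the FGF pathway 3 receptor genes were higher and 3 feedback genes lower, while the receptor *Fgfr1* (224 CPM) and the feedback phosphatase *Dusp6* (19.0 CPM) were read and not called. *Fgfr3*, which restrains growth of cartilage, was at 67.4 CPM against 2.67 CPM in tendon cells, a ratio of 25.3 (16.9 to 39.2). *Fgfr2* was 6.91 times and *Fgfrl1*, a receptor without a kinase domain, 4.61 times higher. The feedback genes *Spry1*, *Spry2* and *Spry4* had ratios of 0.352, 0.449 and 0.178. *Etv5*, a target of the pathway, was 3.06 times higher. *Fgf18*, a ligand of FGFR3, was at 38.4 CPM against 62.0 CPM. In all, 12 of 14 genes were read, with 4 higher and 3 lower.

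In the hedgehog pathway 3 target genes were higher. *Ptch1*, the receptor that hedgehog signaling induces, was at 386 CPM against 99.4 CPM in tendon cells (ratio 3.88, 3.57 to 4.22). *Gli1* was 2.38 times and *Hhip*, a secreted inhibitor, 5.22 times higher. The co-receptors *Gas1* and *Cdon* were lower, with ratios of 0.459 and 0.208. Of 11 genes read, 4 were higher and 2 lower, and the fourth of the higher genes, *Shh*, came mostly from 1 cell, as set out further on, and *Ihh*, the ligand of prehypertrophic chondrocytes, was at 6.05 CPM with a UMI in 12 cells.

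Of 17 BMP genes read, 5 were higher than in tendon cells, none was lower and 12 were not called. The 5 were *Bmp5*, *Gdf10*, the receptor *Bmpr1b* (2.70 times), the antagonist *Nog* (5.20 times) and the target *Id1* (2.18 times). *Gdf5*, the ligand that marks joints, was at 3.63 CPM. Of 11 TGFβ genes read, *Tgfb2* (ratio 0.238) and *Tgfbr3* (0.218) were lower and *Tgfb1* was 2.08 times higher. Of 16 WNT genes read, 7 were lower and 2 higher. The lower genes included the targets *Axin2* (0.288) and *Nkd2* (0.419) and the inhibitors *Dkk2* (0.131) and *Sfrp2* (0.380), and the higher were the inhibitor *Wif1* (3.74 times) and *Lef1* (2.53 times).

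Retinoic acid, a signal made from vitamin A, inhibits cartilage differentiation. The gene of its synthesis *Aldh1a2* had 2 UMIs, 0.605 CPM against 35.4 CPM in tendon cells. *Cyp26b1*, which degrades retinoic acid, was at 88.3 CPM against 17.8 CPM (ratio 4.97, 4.11 to 6.01), and the receptor *Rarg* was 2.56 times higher while *Rarb* had a ratio of 0.178. Among the groups of a later paragraph, *Cyp26b1* was highest in group 3 (164 CPM), which had no *Acan* UMI. It was at 72.8, 125 and 34.2 CPM in groups 2, 6 and 7, which had *Acan*. In all, 3 of 13 genes read were higher and 5 lower.

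Late markers of hypertrophy and bone were at or near 0, while early factors were not. The list without *Spp1* summed to 438 CPM, against 263 CPM in the other tail cells and 253 CPM in tendon cells, most of it *Pth1r* (189 CPM), the receptor that delays hypertrophy, and *Mef2c*. Of the 14 genes analysed 5 were read, and *Mmp13*, *Bglap* and *Dmp1* had no UMI in the cells. Called higher than in the other tail cells were *Runx2*, *Runx3* and *Spp1*, the last from 1 cell. *Sp7*, the osteoblast factor, was at 2.12 CPM and *Alpl* at 1.51 CPM. *Runx2* and *Runx3* were at 39.3 and 23.0 CPM, 2.36 and 2.97 times the other tail cells, and *Mef2c* was at 175 CPM. *Col10a1* was not analysed here.

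Of 16 proliferation genes, 9 were lower than in the other tail cells and none of the 14 read against tendon cells was called. *Top2a* was at 24.5 CPM, against 304 CPM in the other tail cells and 20.2 CPM in tendon cells. The cell cycle inhibitor *Cdkn1c* was at 5410 CPM, 1.46 times the tendon cells, with a UMI in all 241 cells. Glycolysis and hypoxia genes were level or higher, with 6 of 18 read above tendon cells and none below, among them *Pfkp* (6.12 times), *Bnip3* (2.82 times) and *Hk2* (2.52 times). Of 9 IGF genes read 2 were lower and none higher. *Igf1*, the ligand, was at 16.3 CPM against 305.5 CPM in tendon cells (ratio 0.0534, 0.0401 to 0.0699).

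Within the 241 cells, *Scx* and the genes of cartilage matrix ran against each other. At 3000 UMIs per cell, 58 cells had an *Acan* UMI, and 10 of these (17.2%, 8.59 to 29.4) also had a *Scx* UMI. Of the 182 cells without *Acan*, 137 (75.3%, 68.3 to 81.4) had *Scx*. In the red blood cells of code 12 the share with *Scx* was 3.20% (0.879 to 7.99). Cells with both genes made up 4.17% (2.02 to 7.53), and 45 cells had neither. This share moved with depth, to 14.7% at 8000 UMIs per cell and 18.3% in cells as deposited, where 51.2% of 86 cells with *Acan* and 88.4% of 155 cells without it had *Scx*. The 58 cells with *Acan* at 3000 UMIs had a median of 14847.5 UMIs before thinning, and the 182 without it 12670.5.

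The same order was seen in the genes that varied with *Acan* or *Scx*. Correlations were taken over the 240 thinned cells on log counts, among 2874 genes with a UMI in at least 20% of them, and are descriptions of cells from 1 library that also share depth and base composition. Nearest to *Acan* were *Hapln1* (r = 0.71), *Col11a1* (0.69), *Col9a3* (0.69), *Col11a2* (0.67) and *Col2a1* (0.62). Furthest were *Pax1* (-0.44) and *Scx* (-0.44). Nearest to *Scx* were *Map1b* (0.56), a microtubule protein, the hedgehog co-receptor *Gas1* (0.53) and *Pax1* (0.50). Furthest from *Scx* were *Col2a1* (-0.63), *Hapln1* (-0.56), *Wwp2* (-0.56), whose intron holds a cartilage microRNA, *Col9a1* (-0.53) and *Sox9* itself (-0.52). *Pax1*, the sclerotome factor, thus ran with *Scx* and *Sox9* with cartilage matrix.

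**Figure D3:**
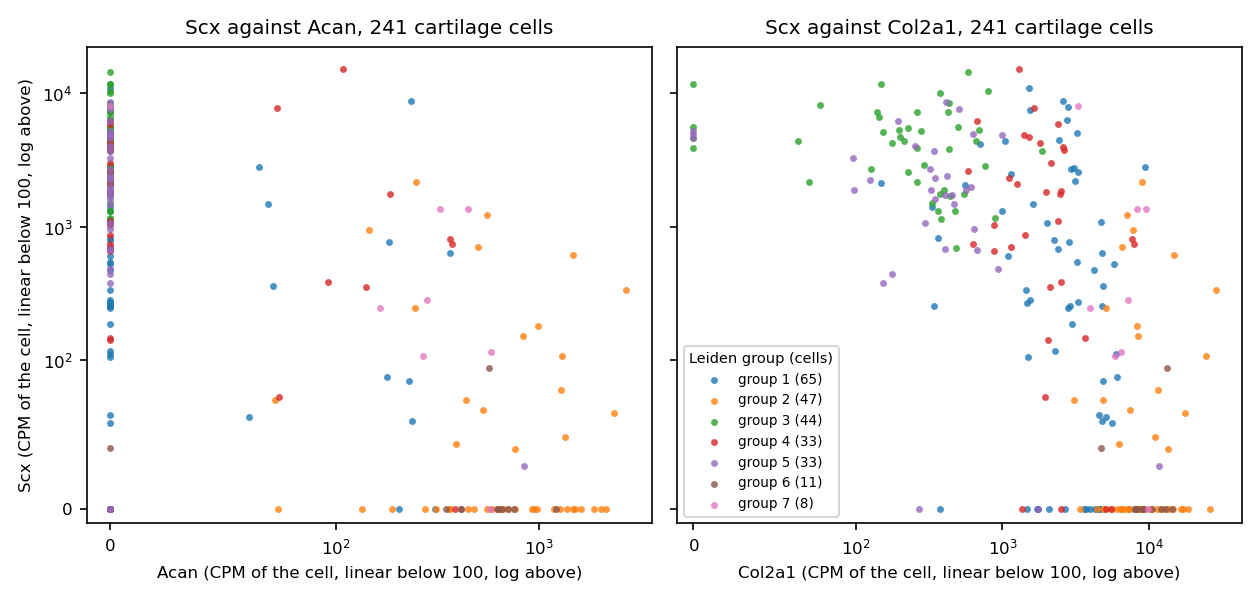
*Scx* in each of the 241 cells (vertical axis, CPM of the cell) against *Acan* (left) and *Col2a1* (right), with both axes linear below 100 and logarithmic above, colored by the 7 groups of a new clustering. A *Scx* UMI is found in 44 of the 86 cells with *Acan* and in 137 of the 155 without it, and *Scx* is lower where *Col2a1* is higher.

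Promoters are shown for 4 of these genes, since members of the *Acan* set and of the *Scx* set moved together. They are the 250 bases before the start of each gene, from RefSeq in GRCm38.p6. One start was listed for 8 of the 10 genes nearest to *Acan* and for 5 of the 10 nearest to *Scx*. In the 7 promoters of *Acan*, *Hapln1*, *Col11a1*, *Col11a2*, *Map1b*, *Gas1* and *Pax1*, ACAAT, the core bound by SOX proteins, and CAGATG, an E-box of the kind bound by helix-loop-helix factors such as SCX, were searched on both strands. ACAAT was found in *Hapln1*, 249 to 245 bases before the start, and CAGATG in *Map1b*, 213 to 208 bases before it, and the other 5 hold neither. These matches are in capitals, and the *Acan* and *Pax1* promoters are given as members without a match. Of all 32851 promoters of this length, 27.7% hold ACAAT and 14.4% hold CAGATG. A match is a description, not a site.
Acan, chr7:79052976-79053225, plus strand: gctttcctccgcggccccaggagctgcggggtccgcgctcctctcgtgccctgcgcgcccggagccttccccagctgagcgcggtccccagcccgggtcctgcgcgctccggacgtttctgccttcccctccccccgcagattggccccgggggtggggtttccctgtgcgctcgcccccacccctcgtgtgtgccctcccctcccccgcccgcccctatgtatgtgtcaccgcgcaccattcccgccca
Hapln1, chr13:89540386-89540635, plus strand: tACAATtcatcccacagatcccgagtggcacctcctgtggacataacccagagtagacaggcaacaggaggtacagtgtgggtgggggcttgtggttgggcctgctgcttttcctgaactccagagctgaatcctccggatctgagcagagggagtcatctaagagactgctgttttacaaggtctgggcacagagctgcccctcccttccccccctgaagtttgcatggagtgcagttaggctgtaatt
Map1b, chr13:99516603-99516852, minus strand: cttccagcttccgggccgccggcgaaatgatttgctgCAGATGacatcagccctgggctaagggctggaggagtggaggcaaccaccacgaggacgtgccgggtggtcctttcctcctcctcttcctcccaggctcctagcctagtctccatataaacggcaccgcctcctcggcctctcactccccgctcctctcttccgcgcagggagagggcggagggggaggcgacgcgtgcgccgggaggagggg
Pax1, chr2:147364744-147364993, plus strand: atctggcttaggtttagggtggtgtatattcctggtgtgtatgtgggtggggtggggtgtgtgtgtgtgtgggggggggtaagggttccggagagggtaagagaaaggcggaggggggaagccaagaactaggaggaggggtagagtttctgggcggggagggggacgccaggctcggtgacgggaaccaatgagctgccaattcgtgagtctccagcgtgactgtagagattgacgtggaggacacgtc

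Leiden clustering of the 241 cells alone, at resolution 0.5, gave 7 groups of 65, 47, 44, 33, 33, 11 and 8 cells, numbered by size. Since they were formed from the same genes, their levels describe how the cells were split. Median depths of the groups lay between 10499 and 15517 UMIs.

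Group 2, of 47 cells, was led by *Matn1*, *Comp*, *Matn3*, *Snorc* and *Acan*, beside *Hbb-bs*, 98.1% of which lay in 1 cell. *Acan* was found in all 47 cells, with a lowest value of 73.1 CPM, a median of 661 and a highest of 2673. *Col2a1* was at 10050 CPM, *Sox9* at 2032 CPM and *Scx* at 137 CPM, with a *Scx* UMI in 18 of the 47 cells. *Comp*, a pentameric matrix protein, was found in 12 cells, and 1 of them held 38.6% of its UMIs.

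In group 3, of 44 cells, the pattern was the reverse. *Scx* was found in all 44 cells, from 688 to 14474 CPM with a median of 4357, and its summed level of 4899 CPM was 3.33 times (3.20 to 3.46) that of the tendon cells. *Pax1* was likewise found in all 44, at 2493 CPM, 20.5 times the tendon cells. *Acan* had no UMI in the group, which by the floor of 3 counts allows up to 4.92 CPM and by the exact interval up to 6.05 CPM. *Col2a1* was at 359 CPM, 3.24 times (2.79 to 3.75) the tendon cells. It was at 2336 CPM in group 4 and 1445 CPM in group 5, but at 505 CPM in group 5 without 1 cell set out further on. *Tnmd* also had no UMI, by the floor of 3 counts at least 18.9-fold under the tendon cells, with an upper limit of 0.0652 for the ratio by the exact interval, and *Col1a1* was at 724 CPM (ratio 0.227). The leading genes included *Cavin2*, *Fhod3*, *Rbp4*, *Krt17* and *Nell2*, with *Cavin2* at 226 CPM in 27 of the 44 cells against 1.48 CPM in the other 197 cells. For these 44 cells, the cartilage label rests on *Matn4*, *Col9a1*, *Sox9* and *Col2a1*, which were 7.44, 5.98, 5.20 and 3.24 times the tendon level, and on *Col9a2* at 1.68 times. In the proliferating tendon cells of code 2, *Col2a1* was at 720 CPM, above the 359 CPM of group 3, *Col9a1* at 261 CPM beside 268 CPM and *Col9a2* at 166 CPM beside 177 CPM, while *Matn4* (182 CPM) and *Sox9* (209 CPM) were below the 332 and 330 CPM of group 3. Several other cartilage genes had few UMIs or none. *Hapln1* had 7 UMIs (0.868 times the tendon level, 0.342 to 1.84) and *Col11a2* 1 UMI (0.369 times, 0.00915 to 2.17), while *Acan*, *Cnmd*, *Matn1*, *Matn3*, *Comp* and *Snorc* had none, and 4 of the 13 proteoglycan and linker genes had a UMI. The 44 cells are given no name here and stay counted among the 241.

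The remaining groups lay between or apart. Group 1, of 65 cells, had *Col2a1* at 3151 CPM and *Scx* at 1383 CPM, 0.940 times (0.885 to 0.998) the tendon cells, and was led by *Cxcl12*, *Rspo3* and *Abi3bp*. Group 4, of 33 cells, was led by *Cenpf*, *Cenpe*, *Birc5* and *Mki67*, genes of dividing cells, with *Mki67* at 232 CPM in 18 cells. Both *Scx*, at 2270 CPM and 1.54 times the tendon cells, and *Col2a1*, at 2336 CPM, were found in group 4. Group 5, of 33 cells, was led by *Spp1*, *Car3* and *Shh*, for which 1 cell, set out further on, held 100%, 100% and 88.7% of the group's UMIs. The group had *Pax1* at 1876 CPM and *Scx* at 2190 CPM, and *Kctd12* at 1004 CPM in all 33 cells, and its *Acan* UMIs came from the same 1 cell. That cell also held 68.0% of the group's *Col2a1* and 48.6% of its *Col9a2* UMIs. In the other 32 cells, a division chosen after seeing the data, *Col2a1* was at 505 CPM, 4.56 times (3.89 to 5.32) the tendon cells, *Sox9* at 322 CPM and *Col9a2* at 95.7 CPM beside 105.8 CPM in tendon cells. In code 2, *Col2a1* (720 CPM) and *Col9a2* (166 CPM) were both higher than in these 32 cells. *Sox9* (209 CPM), *Col9a1* (261 CPM) and *Matn4* (182 CPM) were lower in code 2, beside 322, 348 and 215 CPM in the 32 cells. The cartilage label of the 32 cells thus has limits too, and unlike in group 3 their *Col9a2* was not above the tendon level. Epidermal markers summed to 421 CPM in group 5 and 207 CPM in group 3 against 5.39 to 29.3 CPM in the other groups, and their part in these groups was not tested. Group 6, of 11 cells, had *Col2a1* at 9667 CPM, *Sox9* at 3188 CPM and *Scx* in 2 cells, and was led by *Nog*, *Mef2c* and *Pxdc1* beside *Fabp7*, 99.4% of which lay in 1 cell. Nerve and glia markers summed to 264 CPM in group 6, against 14.8 to 59.9 CPM in the other groups, with all 7 detected, and their part in the group was not tested. Group 7, of 8 cells, held 26 of the 29 *Tnmd* UMIs of the cartilage cells, 69.2% of the 26 in 1 cell, together with *Col2a1* at 6969 CPM, *Acan* at 351 CPM, *Sfrp2* at 1541 CPM and *Tnc* at 1687 CPM. Its *Scx* was at 1216 CPM, with 63.4% of the UMIs in 1 cell.

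How many groups were found depended on the resolution, with 4 groups at 0.3 and 11 at 1.0. Group 3 had all 44 of its cells in a group of 45 at resolution 0.3, all 44 in a group of 44 when cell cycle genes were left out, and 29 in a group of 29 at 1.0. Of group 2, 47 cells stayed together at 0.3 in a group of 58, 32 at 1.0 and 33 without cell cycle genes. Groups 1, 4 and 5 fell mostly into a single group of 130 cells at 0.3. Without cell cycle genes, 34 of the 65 cells of group 1 stayed together, and most of groups 4 and 5 shared a group of 52, so that the borders between these groups depend on the settings.

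**Figure D4:**
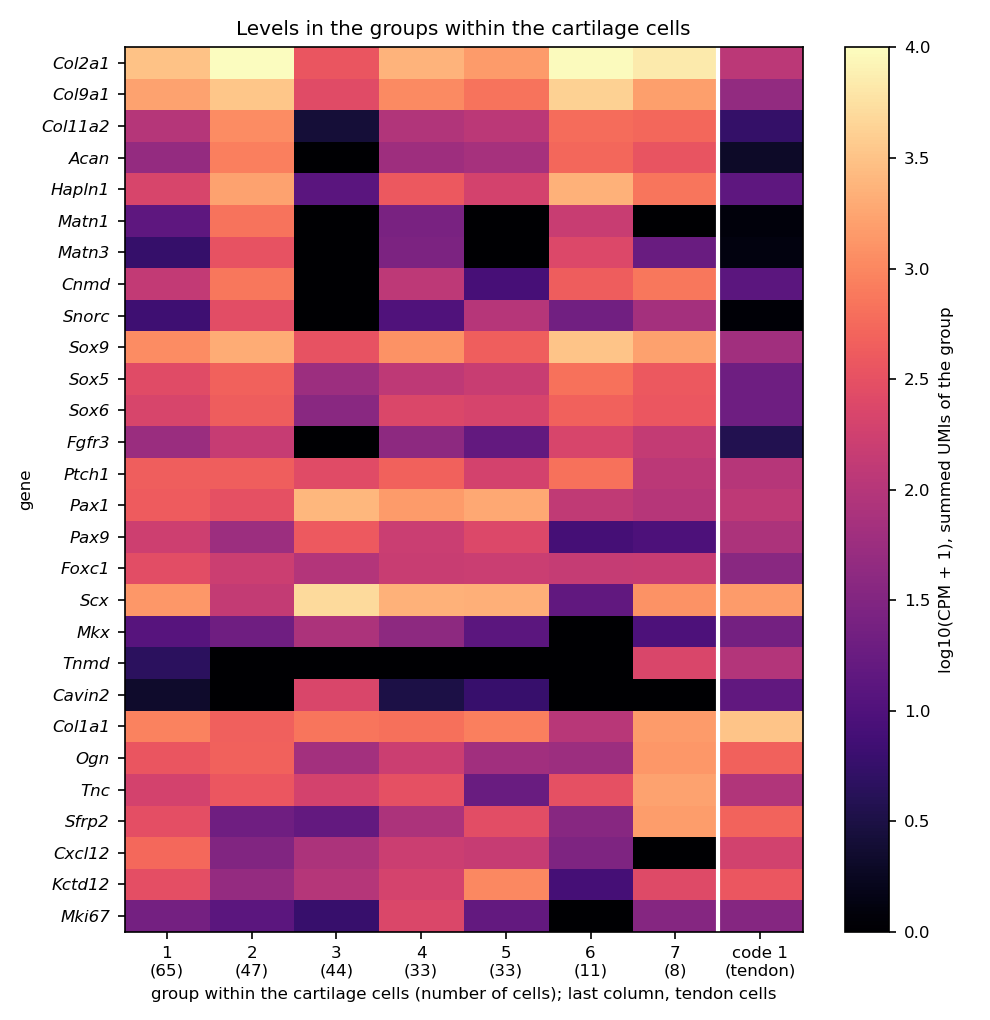
Levels, as log10(CPM + 1) of summed UMIs, of selected genes (rows) in the 7 groups within the cartilage cells (columns, with the number of cells) and in the tendon cells of code 1 (last column). *Acan* is at 866 CPM in group 2 and has no UMI in group 3, where *Scx* is at 4899 CPM.

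Some of the genes with large ratios rested on 1 cell. Over 305 named genes with at least 20 UMIs in the cartilage cells, the highest cell held a median of 4.88% of the UMIs, but more than 50% for 13 genes. One cell of 34483 UMIs in group 5 held 448 of 456 *Spp1* UMIs, 118 of 133 *Shh*, 54 of 56 *T*, all 135 *Car3*, 40 of 70 *Krt19* and 33 of 59 *Krt8* UMIs. *T* and *Shh* are genes of the notochord, which lies within the forming vertebral column. Of the other notochord genes listed, *Foxa2* and *Chrd* had 0 UMIs in this cell, against 7 and 71 in the other cartilage cells. It held 16 of 40 *Krt18*, 49 of 126 *Cd109* and 28 of 1010 *Cd24a* UMIs, and is given no name here. The cell also held 403 *Col2a1*, 64 *Sox9* and 29 *Acan* UMIs, with 1 of *Scx* and 0 of *Pax1*, and was not called a doublet. The other 15 *Shh* UMIs lay in a second cell of group 5, of 31108 UMIs, with 13 *Krt8* UMIs, 29 of *Col2a1* and none of *T* or *Acan*. *Spp1* went from a log2 ratio of 5.54 to 1.13 over the other tail cells when each gene's highest cell was left out.

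Cartilage transcripts were also found outside code 4. Of 1012 *Acan* UMIs in the tail, 856 lay in the cartilage cells and 121 (11.96%) in the 186 cells of code 2, which have high proliferation genes. At 3000 UMIs per cell, 54 of 240 cartilage cells (22.5%, 17.4 to 28.3) had *Acan*, *Col2a1* and *Sox9* together. In code 2 there were 7 of 186 (3.76%, 1.53 to 7.60), and in code 1, 1 of 678 cells. *Top2a*, a gene of dividing cells, had a UMI in 89.2% of all code 2 cells and in 4.58% of the cartilage cells, and the *Acan* cells, with 6 of 7 and 2 of 58, were near the share of their cluster.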

How the data were processed

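The authors deposited whole-number UMI counts per gene and cell, with a cluster code for each cell, from 10x Genomics 3′ libraries processed, per the labels and the study's methods, with Cell Ranger and Seurat 3.0. The genome build of these counts is not given in the sources used here. The deposited counts were used as they stand, without further filters on cells. Cells of tail code 4 were compared with the other tail cells and with tail code 1 by the ratio of summed counts scaled to 1000000 per group (CPM), with exact intervals at 95% (SciPy 1.17.1), for genes of at least 10 CPM in either group. Of the results given here, the D10 culture and D6 PM libraries entered only the shared-barcode check. Levels of some genes in code 4 of the D10 culture were also read and are not reported. Named genes are those of the gene lists, the 25 largest ratios in each direction (at least 100 UMIs over both groups and 50 CPM in the higher one), and the 10 most positive and 10 most negative correlations with *Acan* and *Scx*. Members and lists were chosen with earlier results of these data known. Groups within the cells were made with Scanpy 1.11.5 and leidenalg 0.10.2 (2000 variable genes, 20 principal components, 15 neighbours, resolution 0.5), doublets were called with Scrublet at an expected 6%, and the ratio script was tested on simulated data. Alternatives were other filters, thinning depths, resolutions and comparison cells. Genes named outside this rule, such as the leading genes of groups, were chosen after their values were seen. Some items are not reported here.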

Additional observations from a re-analysis of the deposited data

How the results depend on the processing

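With at least 50 CPM asked of a gene, 211 genes were higher and 262 lower than in the other tail cells, and 161 higher and 221 lower than in tendon cells, since only 4527 and 4539 genes were then read. The share of cells with both *Scx* and *Acan* went from 4.17% to 14.7% at 8000 UMIs per cell and to 18.3% without thinning. Resolutions of 0.3 and 1.0 gave 4 and 11 groups. The remaining alternatives kept the 4 counts within 1.5 times, but not all of the genes. With cells thinned to 3000 UMIs, 348 of the 435 higher and 840 of the 1053 lower genes were shared over the other tail cells. Over tendon cells, 291 of the 390 higher and 529 of the 679 lower genes were shared. At this depth 278 of 668 log2 ratios moved beyond their counting interval, as did 104 with the mean of per-cell CPM. Without the cells of codes 6 and 12 among the other tail cells, the log2 ratios of the blood genes *Hba-a1*, *Hba-a2* and *Alas2* turned to 0.25, 0.14 and 0.39, and the cause was not tested. With each gene's highest cell left out, an alternative chosen after seeing the data, *Car3* and *Hbb-bt* turned to -1.19 and -0.23 over tendon cells, each having had most of its UMIs in 1 cell. No paired analysis was possible because each condition has 1 library. One library also means that differences between animals were not measured, and genes of few UMIs, such as *Nkx3-2* and *Ihh*, are limited by depth.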
